A study of Mus musculus with 21 samples.

Results

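Proteins with a J domain, also called HSP40 co-chaperones, are described here through 10 genes, picked by name: Dnaja1, Dnaja2 and Dnaja4 of class A, Dnajb1, Dnajb2, Dnajb4 and Dnajb6 of class B, and Dnajc2, Dnajc7 and Dnajc21 of class C. They are 10 of the 41608 genes of the count table, and 9 of them are among the 12187 genes with enough counts to test. The rule also names c-MYC peaks at their starts in both genotypes. All 10 had a peak in the Hsf1 WT list and 9 had one in the Hsf1 CKO list, the exception being Dnaja4. The members, and the other gene lists set beside them, were chosen with earlier results of these data known. Counts of them beside the share of all tested genes are therefore descriptions. The study asked how HSF1, the transcription factor of the heat-shock response, bears on transcription by c-MYC in immortalized mouse embryonic fibroblasts (MEFs). RNA came from 4 groups of 3 libraries: MEFs with a stable transgene for LacZ or for V5-tagged GCN5, a histone acetyltransferase, each transfected for 2 days with 10 nM control siRNA (siControl, labelled Hsf1 WT) or siRNA against Hsf1 (siHsf1, labelled Hsf1 KD). In the CUT&RUN part, c-MYC was mapped in Hsf1 WT MEFs given ethanol and in Hsf1 CKO MEFs given 4-hydroxytamoxifen for 7 days. All RNA groups carry a stable transgene and a transfected siRNA. The labels do not give the promoter that drives the transgene, its species or the number of clones. They call the RNA libraries triplicates without saying that these were separate cultures, so p-values measure the spread between libraries, which may be technical.

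A J-domain protein binds an HSP70 chaperone through its J domain, stimulates ATP hydrolysis by HSP70 and so makes it hold on to a client protein. Classes A and B carry clients to HSP70 in folding, refolding and disaggregation, while class C members share only the J domain and direct HSP70 to particular sites, such as the ribosome. In fibroblasts, as in other cells, HSF1 is known to switch on some of these genes under heat shock, with Dnajb1 among the best known of them.

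LacZ libraries held 7.22 to 8.16 M (mega) gene counts, GCN5 libraries 3.69 to 4.27 M, so depth and line cannot be told apart. Hsf1, the target of the siRNA, had 130.6 ± 3.38 CPM (library-scaled counts; SD, n = 3) with siControl and 53.7 ± 5.15 with siHsf1 in the LacZ line, and 132 ± 9.52 and 72.0 ± 3.49 CPM in the GCN5 line. These CPM are scaled by TMM, which sets the typical gene to no change. Kat2a, the gene of GCN5, had mean levels of 217 CPM with siControl and 124 CPM with siHsf1 in the LacZ line and 248 CPM in both GCN5 groups. Myc had 140.3 and 92.5 CPM in the same LacZ groups, and 121 and 147 CPM in the GCN5 groups. Of 7 fibroblast markers none was at 0 in all libraries, and their summed level was 6081 to 6863 CPM for siControl LacZ libraries, 8755 to 10164 CPM for siHsf1 LacZ libraries and 7774 to 8257 CPM for GCN5 libraries. Of 8 haematopoietic markers 4 were at 0 in every library, and their sum was 6.70 to 8.67 CPM in siControl LacZ, above that and up to 14.3 in siHsf1 LacZ, and 4.57 to 6.64 in the GCN5 groups. The summed level of 6 epithelial markers was 44.2 to 62.6 CPM in LacZ and 31.7 to 41.1 CPM in GCN5 libraries, without overlap, and that of 5 endothelial markers 0.271 to 1.41 CPM. The 4 neural markers summed to 26.6 to 34.8 CPM in the LacZ line and 52.7 to 69.2 in the GCN5 line, with 1 marker of each of these lists at 0 in all libraries. The part of such shifts in the results was not tested. Fewer cells of a kind and less RNA per cell cannot be told apart in such bulk RNA.

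Upstream sequences are shown for 3 members called lower after Hsf1 siRNA in the LacZ line with TMM scaling, though not with the spike-in, to let a reader see what precedes a start that carries c-MYC in both genotypes, and for the single stretch that holds a full heat shock element. All are from RefSeq, build GRCm38.p6, and are printed 5′ to 3′ on the strand of the gene. Capitals mark a motif match, and Dnajc21 has none in the stretch shown. In Dnajb1 (plus strand, chr8:83607925-83608174) the capitals are CCAAT read on the other strand. In Dnaja1 (plus strand, chr4:40722218-40722467) they are 2 inverted units of a heat shock element. The stretch of Dnajc21 (minus strand, chr15:10470569-10470766) ends short of its start. In Dnajb6 (plus strand, chr5:29735844-29735873), where the 3-unit element is in capitals, the 30 bases precede an internal annotated start.
Dnajb1: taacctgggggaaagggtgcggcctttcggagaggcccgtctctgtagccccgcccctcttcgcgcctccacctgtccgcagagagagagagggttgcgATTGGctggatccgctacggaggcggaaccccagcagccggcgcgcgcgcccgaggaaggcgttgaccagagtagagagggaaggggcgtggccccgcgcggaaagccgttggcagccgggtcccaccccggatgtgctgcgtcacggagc
Dnaja1: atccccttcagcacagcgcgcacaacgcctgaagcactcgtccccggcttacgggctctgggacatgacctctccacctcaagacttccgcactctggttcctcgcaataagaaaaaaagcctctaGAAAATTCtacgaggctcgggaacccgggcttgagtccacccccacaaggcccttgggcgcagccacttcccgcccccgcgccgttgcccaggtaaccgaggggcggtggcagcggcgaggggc
Dnajc21: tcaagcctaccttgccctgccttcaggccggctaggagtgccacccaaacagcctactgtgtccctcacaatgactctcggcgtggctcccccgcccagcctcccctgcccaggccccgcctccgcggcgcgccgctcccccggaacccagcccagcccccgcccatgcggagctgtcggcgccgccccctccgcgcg
Dnajb6: agctccgaGAATCTTCCGGAAcgctagacc

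RefSeq windows of 250 bases before to 50 after an annotated start were found for 9 members, 17 windows in all, and Dnajc2 has no entry. The 3-unit heat shock element is GAA and TTC in alternation with NN between units and either unit first. It was found in 2 overlapping windows of 1 member, Dnajb6. The share was 0.603% over 32851 windows of all genes and 0.473% over the windows of tested genes. Its 2-unit form (GAANNTTC or TTCNNGAA), which lies within the 3-unit one, was found in 5 of the 17 windows, of 4 members. It was in 15.1% of all windows and 11.5% of those of tested genes. The E-box CACGTG, the c-MYC motif, was in 0 of the 17 windows, in 7.15% of all windows and in 10.0% of those of tested genes. CCAAT or its reverse complement ATTGG was in 4 of the 17 windows, of 3 members, in 37.4% of all windows and in 38.1% of those of tested genes. The members' windows were rich in G and C, with a median of 68.7% against 61% over the windows of tested genes. A match describes letters only, and windows of 1 gene overlap.

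Per transcript length, the class A genes Dnaja1 and Dnaja2 and the class C gene Dnajc7 had the highest levels. In siControl LacZ libraries Dnaja2, a cytosolic class A co-chaperone, stood at 102 ± 6.42 FPKM (SD, n = 3; fragments scaled by transcript length and library size, as deposited). Dnajc7, which links HSP70 with HSP90, stood at 82.7 ± 5.54 FPKM, and Dnaja1, the other broadly expressed class A gene, at 64.0 ± 4.95. Below them came Dnajc2, the J-domain subunit of the ribosome-associated complex, at 42.7 ± 2.76 and Dnajc21, a factor of 60S ribosome maturation, at 40.6 ± 2.73 FPKM, whose libraries overlapped. Class B was lower, with Dnajb1 at 34.8 ± 0.849, Dnajb4 at 23.3 ± 1.72, Dnajb6 at 17.9 ± 1.79 and Dnajb2 at 13.9 ± 1.37 FPKM. Apart from Dnajc2 and Dnajc21, the libraries of no neighbours in this order overlapped. Dnaja4 had 8 counts in all 12 libraries, with 0 to 2 in each, below the floor of 3 counts that a value of 0 allows (0.368 to 0.812 CPM), and was not tested.

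With Hsf1 siRNA in the LacZ line the order of FPKM levels changed around Dnajc2. Its mean of 25.4 ± 1.07 FPKM stood below Dnajc21 (31.3 ± 1.85), and its libraries overlapped those of Dnajb1 (25.3 ± 2.77), which in turn overlapped those of Dnajb4 (24.6 ± 0.723). In siControl GCN5 libraries Dnajc2 stood at 41.7 ± 2.55 FPKM, and in siHsf1 GCN5 libraries at 42.5 ± 0.799, above Dnajc21 with no overlap. In the GCN5 line Dnajb1 moved from 35.2 ± 1.91 FPKM, where its libraries overlapped those of Dnajc21, to 24.9 ± 2.15, where they overlapped those of Dnajb4.

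**Figure D1:**
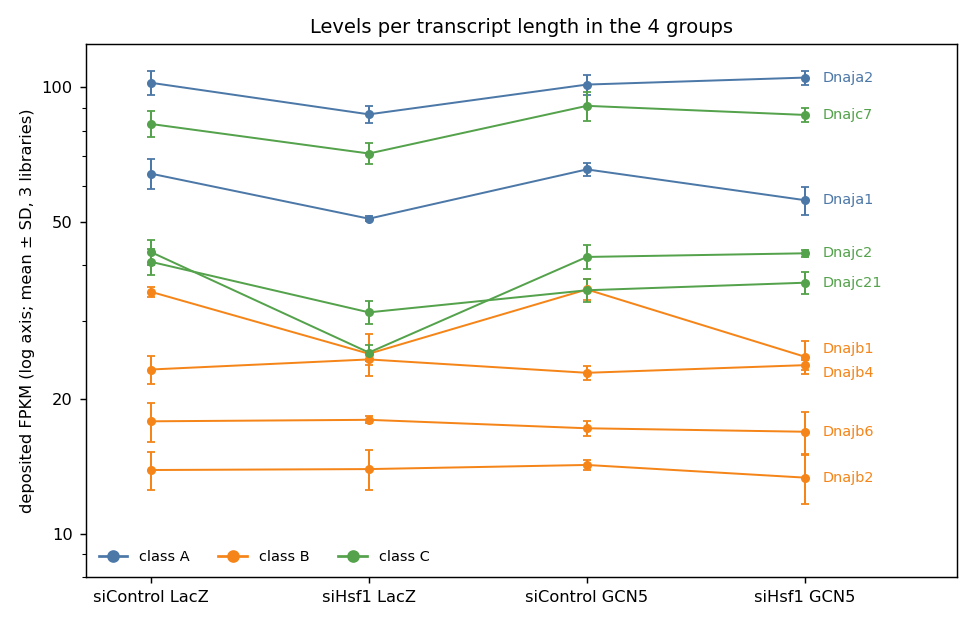
Deposited FPKM (log axis) of the 9 tested members in the 4 groups, as the mean ± SD of 3 libraries each, coloured by class. Dnajc2 stands lowest in siHsf1 LacZ (25.4 FPKM), while Dnajb1 is near 25 FPKM in both siHsf1 groups.

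Reduced Hsf1 transcripts in the LacZ line went with lower Dnajc2. Once libraries were set to a common typical gene, they also went with lower class A and class C members and Dnajb1. The main test (edgeR's quasi-likelihood test, Benjamini-Hochberg adjusted over 12187 genes, called at an adjusted p under 0.05) scaled libraries by ERCC spike-in RNA. It called 1 of 9 members lower, Dnajc2, where 6.03% of all tested genes were called lower. That count was 0 to 6 when 1 library was left out. It was 0 for 4 of the 6 LacZ libraries, 2 without siControl LacZ replicate 2 and 6 without siHsf1 LacZ replicate 1. Over the same omissions the genes called in either direction also moved, from 167 to 3337 of the tested genes. With the replicate number as a block the spike-in fit called 6 of 9 lower, where it called 3369 of the 12187 tested genes lower. With TMM scaling 6 of 9 were called lower, where 19.5% of all tested genes were. None was called higher by either (0.993% and 21.1% of all tested genes). Among the 4376 tested genes with c-MYC peaks in both lists, the shares called lower were 8.59% and 27.7%. The members' median log2 fold change was -0.58 with spike-in scaling beside -0.35 over all tested genes, and -0.22 with TMM scaling beside 0.02. Because the members were chosen with earlier results known, these counts and medians do not test them as a set.

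Spike-in values were spread widely within a group. The spike-in share of counts was lowest in siControl LacZ replicate 1 (0.143%) and highest in siHsf1 LacZ replicate 2 (0.362%), and these libraries gave the highest and the lowest spike-scaled value of each of the 9 members among the LacZ libraries of their group. The common coefficient of variation between libraries was 0.274 with spike-in scaling and 0.0890 with TMM scaling, and the standard error (SE) of a member's log2 fold change in the LacZ line was 0.32 with the former and 0.06 to 0.10 with the latter. Values by library are therefore given in TMM-scaled CPM.

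Dnaja1 (gene 15502; GRCm38 chromosome 4, 40722468 to 40734965, plus strand), a cytosolic class A co-chaperone, measured 231, 254 and 219 CPM in the control libraries of the LacZ line, in the order of replicates, against 186, 188 and 191 CPM after siHsf1. Every siHsf1 library was below every siControl library. Its log2 fold change was -0.32 ± 0.06 SE with TMM (edgeR adjusted p = 0.00034) and -0.68 ± 0.32 with the spike-in (edgeR adjusted p = 0.18).

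Dnaja2 (gene 56445; chromosome 8, 85537640 to 85555271, minus strand), its class A relative in the cytosol, measured 285, 316 and 285 CPM in control libraries, against 259, 241 and 263 CPM after siHsf1 in the LacZ line. These groups did not overlap either, although the gap between them was small. The log2 fold change was -0.22 ± 0.06 SE with TMM (edgeR adjusted p = 0.0061) and -0.57 ± 0.32 with the spike-in (edgeR adjusted p = 0.28). Both tested class A members fell with TMM scaling and neither passed with the spike-in. With the spike-in and the replicate number as a block both passed (edgeR adjusted p = 0.0068 and 0.023).

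Of class B, only Dnajb1 fell with TMM scaling. Dnajb1 (gene 81489; chromosome 8, 83608175 to 83612653, plus strand), the heat-inducible HSP40 that works with HSP70 and HSP110 in disaggregation, measured 111, 117 and 115 CPM in control libraries of the LacZ line, against 77.3, 94.5 and 80.3 CPM after siHsf1. No library of one group reached the other. The log2 fold change was -0.44 ± 0.08 SE with TMM (edgeR adjusted p = 6.5e-05). With the spike-in it was -0.84 ± 0.32 (edgeR adjusted p = 0.086), and the spike-scaled libraries, 180.3, 110.0 and 139 against 101, 63.1 and 75.7 CPM, did not overlap either.

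The other class B members overlapped between the LacZ groups. Dnajb2 (gene 56812; chromosome 1, 75236403 to 75245692), which also binds ubiquitin, lay between 40.9 and 50.8 CPM over the 6 LacZ libraries, with a TMM log2 fold change of 0.02 ± 0.10 SE. Dnajb4 (gene 67035; chromosome 3, 152183871 to 152210328), a close relative of Dnajb1, lay between 66.3 and 79.7 CPM, with 0.09 ± 0.07. For Dnajb6 (gene 23950; chromosome 5, 29735693 to 29786478), which keeps aggregation-prone proteins soluble, the range was 75.5 to 90.4 CPM and the value 0.03 ± 0.08. None of these 3 passed the test with either scaling, and their spike-in values of -0.34, -0.28 and -0.33 (SE 0.32 each) sit near the all-gene median of -0.35.

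All 3 class C members fell with TMM scaling, and Dnajc2 fell with both. Dnajc2 (gene 22791; chromosome 5, 21757273 to 21785249, minus strand) encodes the J-domain protein that, with the HSP70 relative HSPA14, receives chains leaving the ribosome. Its control libraries in the LacZ line gave 88.3, 99.0 and 89.8 CPM, against 53.7, 54.9 and 58.4 CPM after siHsf1. The gap between the groups was far wider than the spread within them, and the fold was 0.603 with TMM (log2 fold change of -0.73 with an SE of 0.07, edgeR adjusted p = 1.8e-08). Spike-scaled, the libraries stood at 143, 93.3 and 109 against 70.2, 36.7 and 55.1 CPM, again without overlap (log2 fold change of -1.09 with an SE of 0.32, edgeR adjusted p = 0.020). The spike-in call was lost without siControl LacZ replicate 1 or 3 or siHsf1 LacZ replicate 2 or 3 (adjusted p up to 0.15), and when only the LacZ libraries were fitted.

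Dnajc21 (gene 78244; chromosome 15, 10446763 to 10470519, minus strand), which acts with HSP70 to release factors from the maturing 60S subunit, measured 82.8, 91.3 and 80.8 CPM in control libraries, against 70.7, 64.4 and 63.8 CPM after siHsf1. The groups did not overlap. Its log2 fold change was -0.36 ± 0.08 SE with TMM (edgeR adjusted p = 0.00050) and -0.70 ± 0.32 with the spike-in (edgeR adjusted p = 0.17).

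Dnajc7 (gene 56354; chromosome 11, 100582818 to 100620168, minus strand), which holds HSP70 and HSP90 through tetratricopeptide repeats, showed the smallest called change. Control libraries gave 229, 251 and 222 CPM, against 195, 216 and 199 CPM after siHsf1, again without overlap. Its log2 fold change was -0.20 ± 0.07 SE with TMM (edgeR adjusted p = 0.017) and -0.58 ± 0.32 with the spike-in (edgeR adjusted p = 0.27). The TMM call was lost without siControl LacZ replicate 2 or without siHsf1 LacZ replicate 1 or 3 (adjusted p up to 0.072). Dnajc7 overlaps Cnp by 8601 bases and Nkiras2 by 313 bases on the other strand, and whether counting used strand is not given in the sources used here, so its reads and theirs may not be told apart. Both were named after their values were seen. Nkiras2 rose in the LacZ line with TMM scaling (log2 fold change of 0.37 with an SE of 0.13, edgeR adjusted p = 0.029), while Cnp stood at 0.07 ± 0.08.

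**Figure D2:**
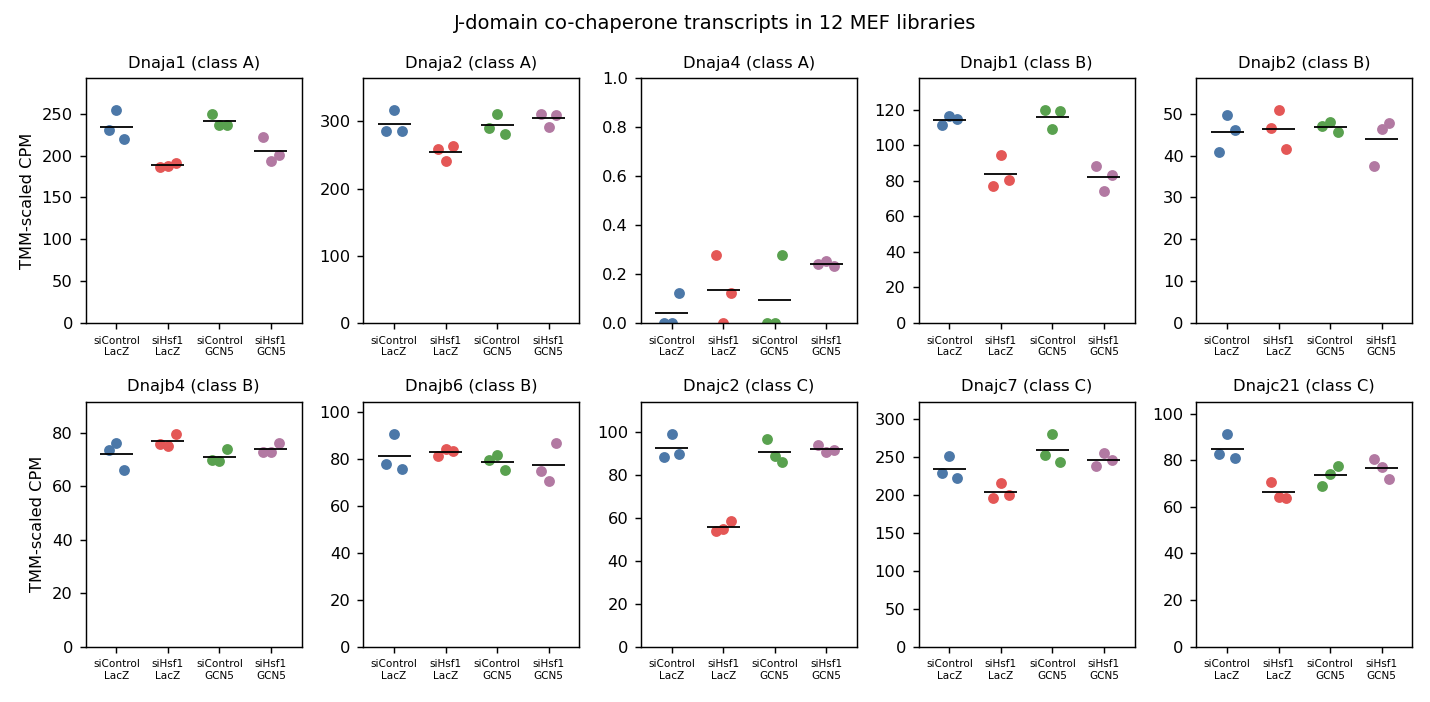
TMM-scaled CPM of the 10 members, 1 panel each from 0, with 1 point per library and a line at the mean of the 3 libraries of a group. Dnajc2 is low in siHsf1 LacZ libraries (53.7 to 58.4 CPM) and Dnajb1 in both siHsf1 groups, while Dnaja4 is near 0 throughout.

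Counts of members whose groups did not overlap in the LacZ line were 6 of 9, all lower, with TMM scaling and 2 of 9, Dnajb1 and Dnajc2, with the spike-in. Over all tested genes the shares lower without overlap were 23.5% and 13.1%.

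After the same siRNA the GCN5 line had lower Dnajb1 with TMM scaling, and no other call among the members. The edgeR test called 0 of 9 with spike-in scaling, where 0.041% of all tested genes were called. An unadjusted p under 0.05 was found for 0 of 9, beside 111 of the 12187 tested genes. With TMM scaling edgeR called 1 of 9 lower, where 0.0985% of all tested genes were called lower. An unadjusted p under 0.05 was then found for 2 of 9, beside 1176 of the 12187 tested genes. DESeq2 with its own size factors also called Dnajb1 alone, where it called 23 of the 12187 tested genes lower. With TMM scaling Dnaja1 and Dnajb1 were lower without overlap, where 9.71% of all tested genes were. With the spike-in no member's groups were apart, where 2.26% of all tested genes were lower without overlap.

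For Dnajb1 the GCN5 line gave 119.8, 109 and 119.6 CPM in control libraries, against 88.3, 74.5 and 83.3 CPM after siHsf1. The highest siHsf1 library was well below the lowest siControl one, as in the LacZ line. Its log2 fold change was -0.50 ± 0.09 SE with TMM (edgeR adjusted p = 0.0085) and -0.55 ± 0.32 with the spike-in (edgeR adjusted p = 1.0). The TMM call was lost without siControl GCN5 replicate 1 or 3 or siHsf1 GCN5 replicate 2 or 3, with an adjusted p up to 0.11 and a log2 fold change of -0.56 to -0.43 over the 6 omissions.

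For Dnajc2 the same line gave 96.5, 89.0 and 85.8 CPM in control libraries, against 93.8, 90.7 and 91.7 CPM after siHsf1. The siHsf1 libraries lay inside the range of the siControl ones, and the TMM log2 fold change was 0.03 ± 0.08 SE (edgeR adjusted p = 0.94). Dnajc21 overlapped too, at 69.2, 74.1 and 77.8 against 80.6, 77.0 and 72.0 CPM (0.05 ± 0.08).

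For Dnaja1 the GCN5 libraries gave 250.1, 236 and 236 CPM in control libraries, against 222, 194 and 201 CPM after siHsf1. All its siHsf1 libraries were lower, but the TMM log2 fold change of -0.23 ± 0.07 SE did not pass the test (edgeR adjusted p = 0.25). Dnaja2, at 289.8, 311 and 281 against 311, 292 and 310.1 CPM, overlapped (0.05 ± 0.06 SE). Dnajc7 overlapped as well, at 252, 279.8 and 243 against 237, 255 and 246 CPM (-0.07 ± 0.07). The remaining class B members had TMM values of -0.10 ± 0.11 for Dnajb2, 0.06 ± 0.08 for Dnajb4 and -0.03 ± 0.09 for Dnajb6.

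**Figure D3:**
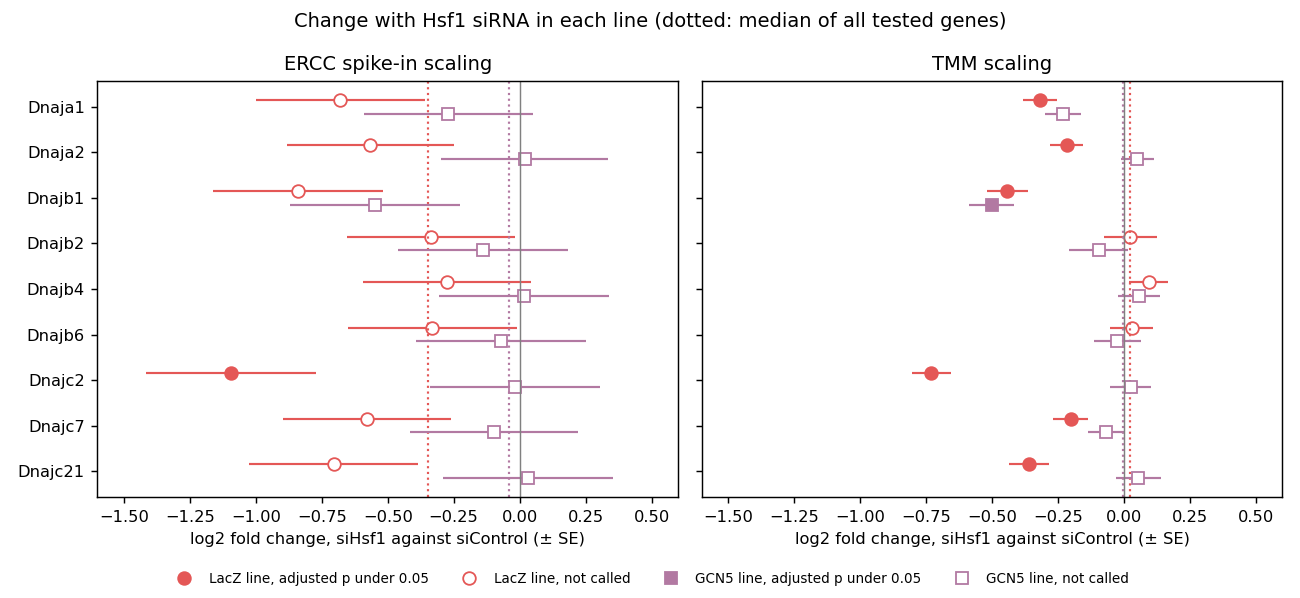
Log2 fold change (± SE) of siHsf1 against siControl for the 9 tested members in the LacZ line (circles) and the GCN5 line (squares), with spike-in scaling on the left and TMM scaling on the right; filled symbols have an adjusted p under 0.05, and dotted lines are the medians of all tested genes. With TMM, Dnajb1 is filled in both lines and Dnajc2 in the LacZ line alone.

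Whether the siRNA effect differed between the lines was tested as an interaction, the log2 fold change in the GCN5 line minus that in the LacZ line. The edgeR test with spike-in scaling called 0 of 9 members, where 0.394% of all tested genes were called. An unadjusted p under 0.05 was found for 1 of 9, Dnajc2, beside 922 of the 12187 tested genes. With TMM scaling 3 of 9 were called, all higher, where 11% of all tested genes were called higher. DESeq2 called the same 3, where it called 1154 of the 12187 tested genes higher. For Dnajc2 the interaction was 0.76 ± 0.11 SE with TMM (edgeR adjusted p = 1.1e-05) and 1.07 ± 0.45 with the spike-in (edgeR adjusted p = 0.51). For Dnajc21 it was 0.41 ± 0.11 SE with TMM (edgeR adjusted p = 0.010), and for Dnaja2 it was 0.27 ± 0.09 (edgeR adjusted p = 0.031). The Dnaja2 call was lost without siHsf1 LacZ replicate 2, siControl GCN5 replicate 3, or siHsf1 GCN5 replicate 1 or 3 (adjusted p up to 0.078).

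No difference between lines was called for Dnajb1, whose interaction was -0.06 ± 0.12 SE with TMM (edgeR adjusted p = 0.77), nor for Dnaja1, at 0.09 ± 0.09, or Dnajc7, at 0.13 ± 0.10. The knockdown itself was not equal: Hsf1 fell by 1.28 ± 0.08 on the log2 scale in the LacZ line and by 0.88 ± 0.08 in the GCN5 line with TMM scaling (interaction 0.41 ± 0.11 SE, edgeR adjusted p = 0.011). Its part in the interactions was not tested. These comparisons share libraries, so their values stand side by side and are not independent of each other.

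Between the lines without knockdown, GCN5 against LacZ with siControl, no member was called. The edgeR test gave 0 of 9 with spike-in scaling, where 1.5% of all tested genes were called, and 0 of 9 with TMM scaling, where 9.6% were. The counts at an unadjusted p under 0.05 were 0 and 2, beside 1424 and 2636 of the 12187 tested genes. DESeq2 also called 0 of the 9, where it called 877 of the 12187 tested genes. With TMM scaling the unadjusted 2 were Dnajc7 (log2 0.14 ± 0.07 SE, edgeR adjusted p = 0.22) and Dnajc21 (-0.21 ± 0.08 SE, edgeR adjusted p = 0.12). Dnajc21 was lower in every siControl GCN5 library, alone among the members, where 12.1% of all tested genes were lower without overlap with TMM and 14.7% with the spike-in. Dnajc7 was called higher with TMM when siControl LacZ replicate 2 was left out (adjusted p = 0.049).

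With siHsf1 the GCN5 line stood above the LacZ line for class C genes and Dnaja2 once TMM scaled. The edgeR test called 0 of 9 members with spike-in scaling, where 5.44% of all tested genes were called. An unadjusted p under 0.05 was found for 1 of 9, Dnajc2 (log2 0.67 ± 0.32 SE), beside 1791 of the 12187 tested genes. With TMM scaling it called 4 of 9, all higher, where 22.3% of all tested genes were called higher. Dnajc2 was 1.65-fold as high (log2 0.72 ± 0.08 SE, edgeR adjusted p = 3.2e-08), with all 3 GCN5 libraries above all 3 LacZ libraries under either scaling. Dnajc7 (0.27 ± 0.07 SE), Dnaja2 (0.26 ± 0.06 SE) and Dnajc21 (0.21 ± 0.08 SE) were the others called. DESeq2, which called 2419 of the 12187 tested genes higher, called 3 of these, without Dnajc21 (DESeq2 adjusted p = 0.071). The edgeR call of Dnajc21 was also lost in 4 of 6 omissions of a library. These were siHsf1 LacZ replicate 2 or 3 and siHsf1 GCN5 replicate 1 or 2. Groups without overlap, all with GCN5 higher, were 5 of 9 with TMM and 1 of 9 with the spike-in, where 27.4% and 5.67% of all tested genes were higher without overlap.

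The other 39 J-domain genes, a list of the family outside the members, moved in both directions. Of 32 tested, edgeR with TMM scaling called 8 higher and 4 lower in the LacZ line, where 21.1% and 19.5% of all tested genes were. The list's median log2 fold change was 0.03, beside 0.02 over all tested genes. DESeq2 called 6 higher and 2 lower, where it called 2064 of the 12187 tested genes higher and 2173 lower. Among the 4 with the smallest p by the main test were Dnajc25, a membrane J-domain protein, and Dnajc15 and Dnajc11, both mitochondrial. Dnajc11 fell with TMM scaling (-0.26 ± 0.07 SE, edgeR adjusted p = 0.0046), as did Dnajc25 (-0.43 ± 0.15 SE, edgeR adjusted p = 0.026), while Dnajc15 (-0.44 ± 0.21) did not pass. The call of Dnajc25 was not made by DESeq2 and was lost without siControl LacZ replicate 2 or siHsf1 LacZ replicate 1 or 3 (edgeR adjusted p up to 0.11). The other 2 called lower, named after their values were seen, were Dnajc8 (-0.19) and Dnajc9 (-0.22). The largest value among the 8 called higher, singled out in the same way, was that of Hscb, a mitochondrial iron-sulfur co-chaperone (0.64). With spike-in scaling edgeR called 0 of the 32 in the LacZ line. An unadjusted p under 0.05 was found for 4, beside 2699 of the 12187 tested genes. For the GCN5 line edgeR called 0 of 32 with either scaling, and DESeq2 called 0. There 0 (spike-in) and 1 (TMM) had an unadjusted p under 0.05.

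The HSP70 machinery that J-domain proteins serve included some of the larger falls. Of 9 cytosolic HSP70 and HSP110 genes, 6 were tested. In the LacZ line edgeR called 3 lower with the spike-in and 4 lower with TMM, where 6.03% and 19.5% of all tested genes were. The list's medians were -0.92 and -0.55. Hspa8, the constitutive HSP70, went from a mean of 2711 to 1650.0 CPM (TMM log2 -0.72 ± 0.05 SE, edgeR adjusted p = 1.8e-11). Hsph1, an HSP110 that recharges HSP70 with nucleotide, fell from 316 to 176 CPM (TMM -0.84 ± 0.06 SE, edgeR adjusted p = 1.3e-11). The spike-in calls of Hspa8 and Hsph1 were lost without siControl LacZ replicate 1 or siHsf1 LacZ replicate 2 or 3, and that of Hspa8 also without siControl LacZ replicate 3 (edgeR adjusted p up to 0.18 and 0.12). Hspa4, another HSP110, fell with TMM scaling alone (-0.39 ± 0.05 SE, edgeR adjusted p = 1.7e-06). Hspa14, the partner of Dnajc2 in the ribosome-associated complex and singled out after its value was seen, had a TMM value of -0.21 (edgeR adjusted p = 0.011).

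Hspa4l varied within groups, with 72, 73 and 15 counts in the control libraries of the LacZ line against 15, 64 and 12 after siHsf1, and was called lower with the spike-in alone, a call lost without siControl LacZ replicate 1 or siHsf1 LacZ replicate 3 (edgeR adjusted p up to 0.43). For the GCN5 line edgeR called 1 of the 6 lower with each scaling, a different gene in each, and DESeq2 called 2, Hsph1 and Hspa8. Of all tested genes edgeR called 0.041% with the spike-in, and 0.0985% lower with TMM. The gene called with TMM was Hsph1 (-0.40 ± 0.06 SE, edgeR adjusted p = 0.00081). With the spike-in it was Hspa4l, at 45, 52 and 39 counts with siControl and 5, 9 and 6 with siHsf1 (edgeR adjusted p = 1.9e-06, and 0.40 with TMM).

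Among co-chaperones without a J domain, calls in the LacZ line were again all lower. Of 9 that act with HSP70 or HSP90, edgeR called 1 lower with the spike-in and 4 lower with TMM, and none higher. Of all tested genes, 6.03% and 19.5% were called lower, and 0.993% and 21.1% higher. Stip1, the HSP70 to HSP90 adaptor, fell with both scalings (TMM -0.55 ± 0.05 SE, edgeR adjusted p = 7.0e-09). Its spike-in call (edgeR adjusted p = 0.048) was lost without siControl LacZ replicate 1 or 3 or siHsf1 LacZ replicate 2 or 3 (up to 0.37). Bag2 (-0.44 ± 0.07 SE) and Bag4 (-0.30 ± 0.09 SE), nucleotide exchange factors, and St13, the HSP70-interacting protein HIP (-0.23 ± 0.05 SE), fell with TMM scaling alone, and the call of Bag4 was lost without replicate 3 of either LacZ group (edgeR adjusted p up to 0.096). In the GCN5 line edgeR called 0 of the 9 with either scaling, with 0 (spike-in) and 2 (TMM) at an unadjusted p under 0.05, and DESeq2 called Stip1 lower.

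Partners of the class C members at the ribosome were examined as 2 lists. Of 7 factors of 60S maturation, where Dnajc21 acts, edgeR called 1 lower with the spike-in in the LacZ line. With TMM it called 3 lower and 1 higher. Of all tested genes, 6.03% were called lower with the spike-in, and 19.5% lower and 21.1% higher with TMM. Pa2g4, a factor bound to 60S particles, fell from 291 to 151 CPM (TMM -0.95 ± 0.06 SE, edgeR adjusted p = 1.3e-11), and its spike-in call was lost without siHsf1 LacZ replicate 3 (edgeR adjusted p = 0.068). Lsg1, a GTPase that helps release the export adaptor Nmd3, fell with TMM (-0.30 ± 0.08 SE), as did Nmd3 itself (-0.22 ± 0.07 SE). Eif6, which keeps the ribosomal subunits apart, stood at 0.08 ± 0.08 with TMM and at -0.31 ± 0.32 with the spike-in. The 1 called higher was Zfp622 (0.47, edgeR adjusted p = 0.0011), another 60S factor, named after its value was seen. Naca, Btf3 and Btf3l4 bind chains at the ribosome, where Dnajc2 also acts. With TMM 3 of 3 were called lower (-0.35 ± 0.07, -0.43 ± 0.07 and -0.27 ± 0.09 SE). With the spike-in 0 of 3 were called, and 3 had an unadjusted p under 0.05, beside 2699 of the 12187 tested genes. DESeq2 called Naca and Btf3 lower, where it called 2173 of the 12187 tested genes lower. The TMM call of Btf3l4 was lost without siControl LacZ replicate 2 or 3 or siHsf1 LacZ replicate 1 (edgeR adjusted p up to 0.082). In the GCN5 line edgeR and DESeq2 called 0 of the 7 and 0 of the 3. There, with TMM scaling, 0 of the 7 and 1 of the 3 had an unadjusted p under 0.05, and with the spike-in 0 of either list.

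**Figure D4:**
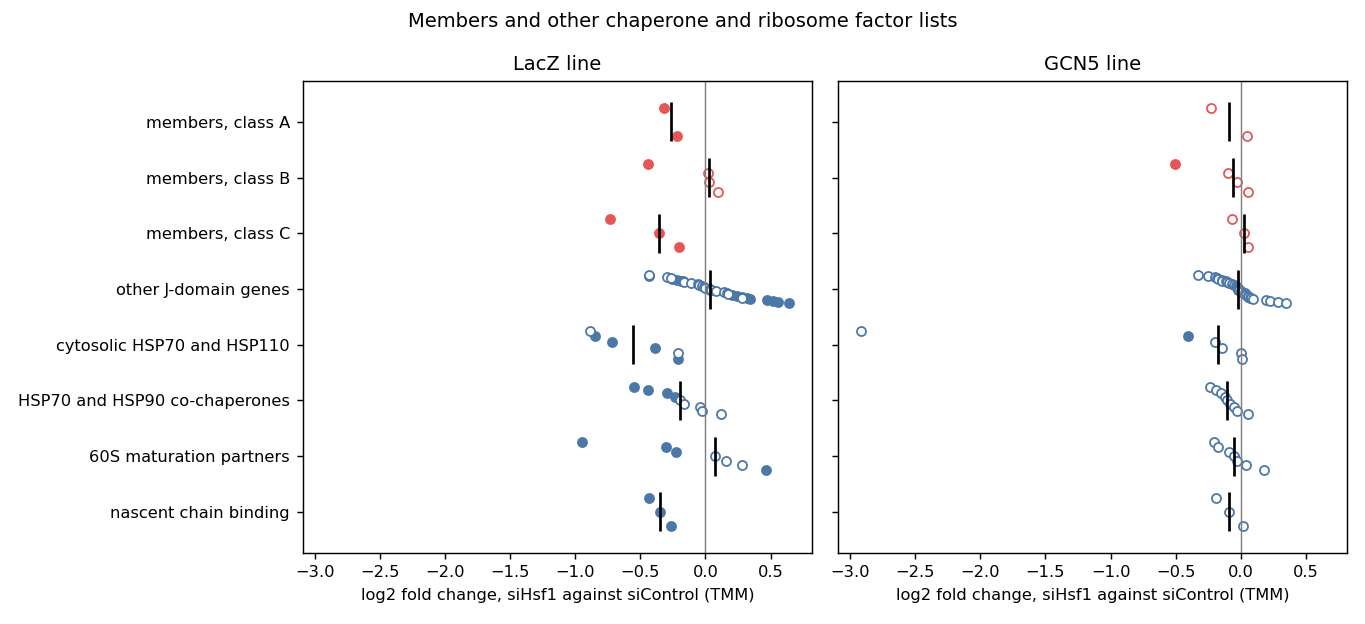
TMM log2 fold change of siHsf1 against siControl for each tested gene of the members by class (red) and of 5 other lists (blue) in the LacZ line (left) and the GCN5 line (right); filled points have an adjusted p under 0.05 and black bars are list medians. Filled points are many on the left, and on the right they are Dnajb1 and Hsph1.

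Genes whose pattern over the 12 libraries came closest to that of Dnajb1 or Dnajc2 were found by the root mean square difference of centred log2 CPM (TMM) among 9590 genes. Nearest to Dnajc2 were Rsl1d1 (0.053), Eif4a1 (0.055), Eif2b5 (0.057), Wdr3 (0.057) and Wdr43 (0.058), where the median gene stood at 0.354. Nearest to Dnajb1 were Rp9 (0.108), 0610011F06Rik (0.114), Ift22 (0.119), Dazap2 (0.127) and C330006A16Rik (0.128), with a median gene at 0.312. Among the members themselves the closest pair was Dnajb4 and Dnajb6 (0.087), and the member nearest to Dnajc2 was Dnajc7 (0.215). The distance between Dnajb1 and Dnajc2 was 0.291. All these distances share the same libraries and are descriptions.

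The rule names the c-MYC peaks, which are described without a test, from 1 peak list per genotype and so without replicate error. The Hsf1 WT list holds 220037 peaks and the Hsf1 CKO list 6386. A peak within 1000 bases of a start was found for 79.6% of tested genes in the WT list, 37% in the CKO list and 36% in both, so the members' presence in both lists is what the rule asked for. The maximal signal of a peak, the authors' value, was a whole multiple of a fixed step in each list (100% of peaks within 0.01 step), with a CKO step 0.527 times the WT step. What 1 step stands for is not given in the sources used here. Heights are therefore given in steps of their own list.

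At starts with a peak in both lists, median heights were similar in steps, though not in the authors' units, while WT peaks were wider. A start without a listed CKO peak is left out, so these heights do not show whether c-MYC signal changed without Hsf1. The WT maximum at the members with both peaks was 7 steps at Dnaja1 to 22 at Dnajb4, with a median of 11, and the CKO maximum 9 to 21, with a median of 13. The CKO to WT ratio of steps had a median of 1 over the 9 members and of 1 over 4376 tested genes with both peaks. Dnajc21 had the highest ratio, 2.33, from 9 to 21 steps, and Dnaja2 the lowest, 0.688, from 16 to 11. At Dnajc2 the maximum was 11 steps in WT and 9 in CKO, and at Dnajb1 10 and 13. In the authors' units the CKO to WT ratio of maxima was 0.362 to 1.23 over the 9 members, highest at Dnajc21. The median of that ratio was 0.527 over the members and 0.527 over the 4376 genes.

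Summed signal of the peak at the start was lower in CKO at each of the 9, in the authors' units and in steps. The CKO to WT ratio of totals had a median of 0.312 in the authors' units, beside 0.322 over the 4376 genes (quartiles 0.222 and 0.448). With each total divided by the step of its list, the median was 0.592, beside 0.611. Both the step and the widths enter the first ratio, and the widths enter the second. At Dnajc2 the peak spanned 3416 bases in WT and 1724 in CKO, with a mean signal over its length of 4.51 and 3.62 steps and a ratio of totals in steps of 0.405. At Dnajb1 the widths were 2640 and 1983 bases and the ratio in steps 0.801, while the mean was slightly higher in CKO, at 4.75 against 4.46 steps. At Dnajc7 they were 8029 and 1919 bases, with means of 4.49 and 3.78 steps and a ratio of 0.201. The maximum of the WT peak of Dnajc7 lay upstream, at -2788 bases from the start, so that its total need not describe the start. The WT peak of Dnajb2 spanned bases 75230047 to 75236449 of chromosome 1, and its maximum lay upstream, far from the start, so that its height need not be that of the start. Dnaja4, with almost no RNA, had a WT peak of 6 steps that began 420 bases inside the gene, over a later annotated start.

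**Figure D5:**
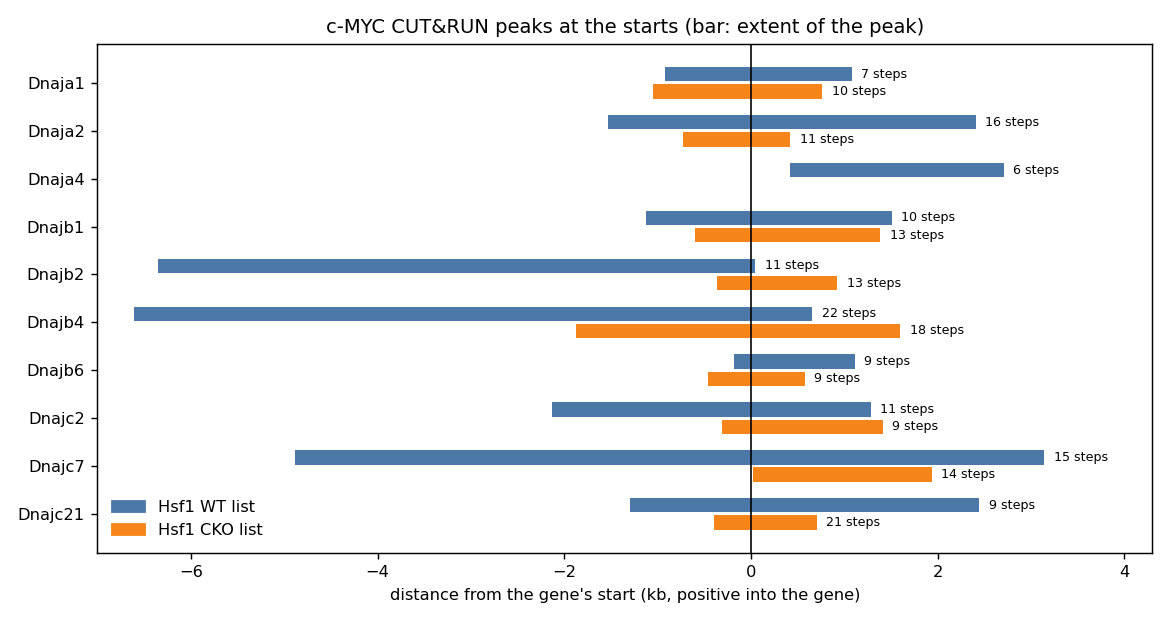
Extent of the c-MYC peak at the start of each member in the Hsf1 WT list (blue) and the Hsf1 CKO list (orange), as distance from the start of the gene in kilobases, positive into the gene, with the maximum in steps of that list beside each bar. WT bars are wider than CKO bars at each member with both, and Dnaja4 has no CKO bar.

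Several of these starts lie beside that of a gene on the opposite strand, so a peak there cannot be given to 1 of the 2 genes. These neighbours were named after their values were seen. The start of Dnajc2 lies 34 bases from that of Psmc2, a proteasome subunit, which also fell with TMM scaling in the LacZ line but less (log2 -0.22 ± 0.07 SE, edgeR adjusted p = 0.0125) and stood at 0.02 ± 0.07 in the GCN5 line. Dnajb4 starts 99 bases from Fubp1, a regulator of Myc transcription, which fell (-0.27 ± 0.07 SE, edgeR adjusted p = 0.0017) where Dnajb4 stood at 0.09 ± 0.07. Dnajc7 and Nkiras2 start 312 bases apart and overlap. Dnaja1 starts 801 bases from Aptx, a DNA repair gene, at -0.19 ± 0.11 (edgeR adjusted p = 0.195). Noncoding RNAs on the opposite strand start 81 bases from Dnajb1 (Gm42029) and 243 from Dnajb6 (Gm5129). Others start 373 bases from Dnaja1 (Gm6297) and 419 from Dnaja4 (LOC108167653). In that order they had 2, 1, 26 and 0 counts in all 12 libraries.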

How the data were processed

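RNA libraries were aligned with HISAT2 and CUT&RUN libraries with Bowtie2, on GRCm38 or mm10, and peaks were called with SEACR, per the submitters' processing notes, which also list DESeq2. The sources used here do not state versions, the counting program, the use of strand or any pooling of replicates. The authors deposited whole-number counts and FPKM values per gene. The deposited peak lists give, per peak, a total signal (a score summed over the peak) and a maximal signal. Total gene counts per library were 3.69 to 8.16 M (M, mega), and a floor of 3 counts was 0.368 to 0.812 CPM, for counting error only.

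Counts of 12 libraries in 4 groups were fitted with edgeR 4.0.16 (quasi-likelihood, robust, group means, 8 residual degrees of freedom, R 4.3.3, limma 3.58.1) after filterByExpr with a minimum count of 10, which left 12187 genes. Scaling used the summed counts of 23 ERCC transcripts of subgroup B, meant to be equal in both mixes. Which transcripts form the subgroup is not given in the sources used here and was not checked against the manufacturer's list. The labels give mix 1 for siControl and mix 2 for siHsf1, while the ratio of subgroup A to B counts was 1.36 to 1.54 in all libraries, without a split by siRNA. P-values were adjusted by Benjamini-Hochberg over all tested genes. TMM scaling, all ERCC transcripts, no filter, DESeq2 1.42.0, a replicate block, the compared groups alone and leaving out each library were alternatives. The fitting script was tested on simulated data. A gene had a peak where a peak lay within 1000 bases of an annotated start. Peaks and tables were joined with Python 3.11.15 and pandas 2.3.3.

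Named genes are the 10 members, Hsf1, Kat2a and Myc, up to 4 genes with the smallest p from each other list, and the 5 genes nearest to Dnajb1 and to Dnajc2 (root mean square difference, mean log2 CPM of at least 3, prior count 2). Genes outside this rule are said in the text to have been named after their values were seen, and 1 gene picked from a list is not reported here. The members and lists were chosen with earlier results of these data known. Samples with Myc siRNA and their controls were not analysed here.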

Additional observations from a re-analysis of the deposited data

Results flagged for a closer look

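For 3 members the response to Hsf1 siRNA differed between the lines by the interaction test with TMM scaling (edgeR), the log2 fold change in the GCN5 line minus that in the LacZ line. The difference was 0.755 for Dnajc2, 0.414 for Dnajc21 and 0.268 for Dnaja2. With spike-in scaling edgeR called none of the 3, at 1.07, 0.73 and 0.58. The knockdown of Hsf1 itself was smaller in the GCN5 line, and its part in these differences was not tested.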

How the results depend on the processing

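Counts of called genes moved with the scaling, the block and the libraries fitted. Of 12187 genes, the spike-in fit called 856 after Hsf1 siRNA in the LacZ line (121 higher, 735 lower), and TMM called 4944 (2571 higher, 2373 lower), DESeq2 4237 and the LacZ libraries alone 129. In the GCN5 line the counts were 5 with the spike-in, 20 with TMM, 35 with DESeq2 and 3 with the GCN5 libraries alone. Between lines with siControl they were 183, 1170 with TMM and 877 with DESeq2, and with siHsf1 663, 5465 and 4633. For the interaction they were 48, 2675 and 2088. TMM shifted the median of all tested genes from -0.35 to 0.02 in the LacZ line and from -0.40 to -0.00 between lines with siControl.

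Without 1 library, spike-in counts ranged from 167 to 3337 in the LacZ line, 4 to 9 in the GCN5 line, 104 to 291 and 369 to 945 between lines with siControl and siHsf1, and 35 to 268 for the interaction. With TMM they ranged from 4259 to 4765, 4 to 12, 800 to 1312, 4710 to 4974 and 2143 to 2807. Members called lower in the LacZ line with the spike-in were 1 as reported, 0 without siControl LacZ replicate 1 or 3 or siHsf1 LacZ replicate 2 or 3, 2 without siControl LacZ replicate 2 and 6 without siHsf1 LacZ replicate 1. With TMM they were 5 or 6.

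Gene by gene, replicate numbers did not pair the samples: same-numbered libraries correlated at -0.0615 to 0.101 in their deviations from group means (TMM-scaled log2 CPM), others at -0.0757 to 0.0615. That correlation does not see a shift shared by all genes, and the spike-in share of counts was lowest in replicate 1 in all 4 groups (0.143% to 0.231%). With the replicate number as a block, 3661 genes were called in the LacZ line (292 higher, 3369 lower) and 8 in the GCN5 line. Between lines 1083 and 1784 were called, and for the interaction 855. With the block and TMM the counts were 5123, 33, 1257, 5590 and 2853. Under the block 6 members were called lower in the LacZ line with the spike-in, and Dnajc2 was called between lines with siHsf1 and in the interaction.

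Some small changes reversed sign, given as TMM, block with TMM, and DESeq2. For the LacZ line these were Dnajb2 (0.0233, 0.0241, 0.0111), Dnajb4 (0.0927, 0.0926, 0.0807), Dnajb6 (0.0284, 0.0293, 0.0162) and Eif6 (0.0771, 0.0746, 0.065). With TMM and 1 library left out, values that changed sign ranged from -0.0599 to 0.0949 (Dnajb2), -0.0226 to 0.113 (Dnajb6) and -0.0237 to 0.139 (Eif6) in the LacZ line. For the GCN5 line they ranged from -0.157 to 0.0053 (Dnajb2), -0.11 to 0.0394 (Dnajb6) and -0.0047 to 0.0796 (Dnajc2), and for the interaction of Dnajb1 from -0.115 to 0.0406. The cause was not tested. The member peaks were found in the same numbers with a window of 250 bases, and 7 members had both peaks at or above their list's median maximum.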
